A study of Homo sapiens with 2 samples.

Results

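The respiratory chain genes are those whose products build the 5 protein complexes of oxidative phosphorylation in the mitochondrial inner membrane. They were chosen by gene symbol alone: subunits of complex I (NDUFA, NDUFB, NDUFC, NDUFS and NDUFV genes), complex II (SDHA to SDHD), complex III (UQCR genes), complex IV (10 COX genes) and ATP synthase (ATP5F1, ATP5M and ATP5P genes), and every gene of the mitochondrial genome, whose symbols begin with MT-. The rule took 90 of 36601 genes, 77 nuclear and 13 mitochondrial. By complex the nuclear genes numbered 36 in complex I, 4 in complex II, 8 in complex III, 11 in complex IV and 18 in ATP synthase. NDUFA4 carries a complex I name but is a subunit of complex IV and was counted there.

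The cells were naive H9, an established line of human embryonic stem cells, and gave 2 single-cell RNA libraries in a study of how LINE1 RNA and the chromatin complex PRC2 hold back the 8-cell-like state. From transfection on, both cultures were kept in RSeT medium with 10 nM DZNep, which lowers histone methyltransferase activity, and 5 nM TSA, a histone deacetylase inhibitor, so both agents are present in the control too. Each culture was given 25 nM of an oligonucleotide labelled with 6-FAM, antisense to LINE1 in the library ASO-L1 and of the sense sequence in the control library SO-L1. The survival supplements Y-27632 (10 µM), emricasan (5 µM) and trans-ISRIB (0.7 µM) were present for the first 24 h, and FAM-positive cells were sorted in buffer with DAPI at 48 h for 10x 3' v3 libraries. Each group is 1 library, so no difference between groups has a replicate check and no p-value is given.

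Most respiratory chain subunits are nuclear genes, translated in the cytosol and imported, whereas the mitochondrial genome encodes 13 core proteins of complexes I, III, IV and V that are transcribed from long polycistronic transcripts inside the organelle. Complex I (NADH dehydrogenase) and complex II (succinate dehydrogenase, wholly nuclear encoded) pass electrons to coenzyme Q. Complex III passes them on to cytochrome c, complex IV to oxygen, and complex V uses the resulting proton gradient to make ATP. The transcription factors NRF1 and GABPA are known for binding promoters of many nuclear respiratory chain genes.

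A barcode was kept as a cell when it had 1000 or more genes and an MT- share of its UMIs (unique molecules counted) below 20%, which left 6553 of 13070 SO-L1 barcodes and 9084 of 11659 ASO-L1 barcodes with 273349662 and 499106701 UMIs. Cells below 2% MT- UMIs are called low-mitochondrial and the rest high-mitochondrial. SO-L1 held 1857 low-mitochondrial cells (28.3%) and ASO-L1 held 2531 (27.9%), with median MT- shares of 0.148% and 0.133%, against 8.91% and 7.31% in the high-mitochondrial cells. This is a range of a measured share and not a cell type: 119 SO-L1 and 219 ASO-L1 cells lay between 1% and 2%, and 156 and 306 between 2% and 4%. Median UMIs per cell were 33612 and 45154 (low and high) in SO-L1 and 44720 and 56296 in ASO-L1. In all, 6105 barcodes occurred in both libraries, and in 6078 of them the smaller count was under 5% of the larger, with a median of 1.33%. Such small copies numbered 253 among kept SO-L1 cells and 3 among kept ASO-L1 cells, holding 0.170% of the kept SO-L1 UMIs. Leaving them out moved no result past the bounds set for a change. The 8 pluripotency genes that define these cells were present in both classes, at lower levels in low-mitochondrial cells. POU5F1 differed least of the 8 between the classes of each library. It was at 956 and 1041 CPM in low- and high-mitochondrial SO-L1 cells and at 609 and 1020 CPM in ASO-L1.

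**Figure D1:**
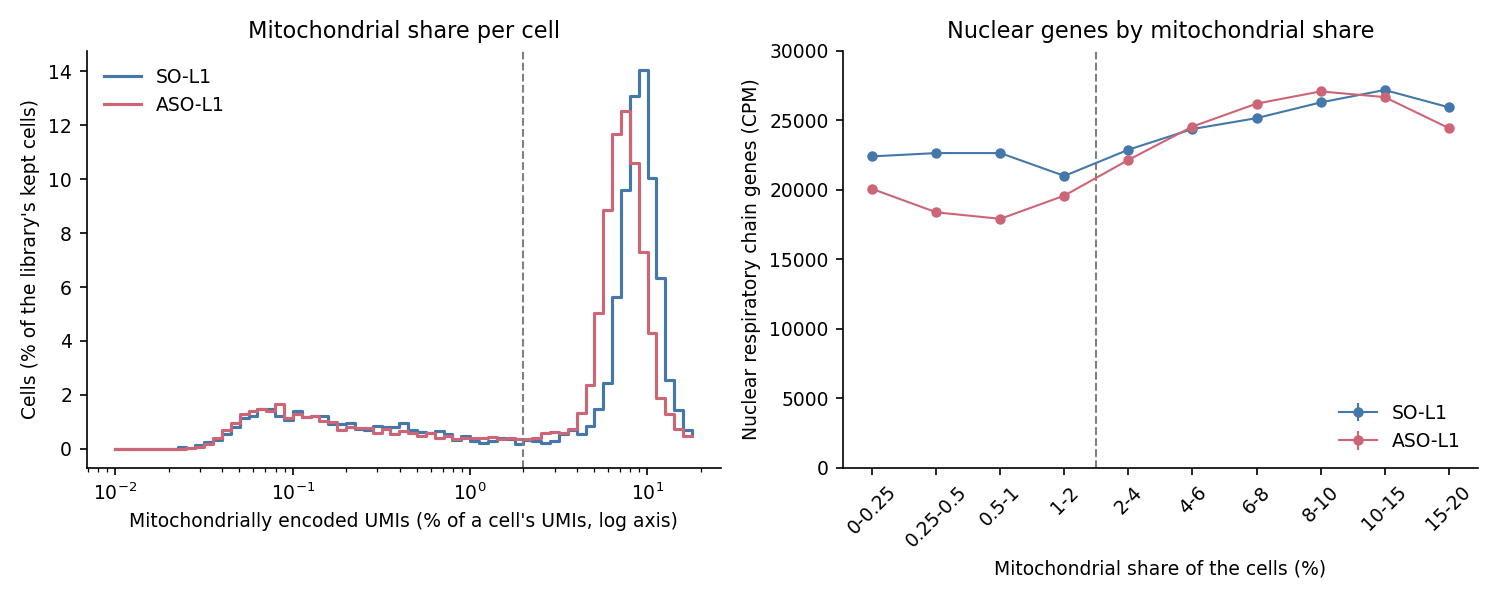
Left, percent of each library's kept cells (y axis) by MT- share of UMIs in percent (x axis, log scale), with the 2% boundary as a vertical line. Right, summed CPM (UMIs of a gene per 1e+06 UMIs outside the MT- genes) of the 77 nuclear respiratory chain genes by bin of MT- share. The cells form separate groups near 0.1% and near 8% in both libraries, and the nuclear genes run from 22403 CPM in the lowest SO-L1 bin to 27177 CPM at 10% to 15%.

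Promoter sequences are shown because the nuclear genes differed mostly in 1 direction between the classes. RefSeq promoter windows (GRCh38.p14, 300 bases around each gene start) matched 61 of the 77 nuclear genes, in 73 windows. The NRF1 core motif, given by the capitals in the stretches below with 1 free base in its middle, occurred in 20.5% of these windows and in 5.78% of all 35116 promoter windows. CCGGAAG, the ETS core bound by GABPA, occurred in 28.8% against 10.3%, and AAGATGG, a YY1 core, in 26.0% against 5.84%. All were searched on both strands, and since the ETS letters end as the YY1 letters begin, matches of these 2 can overlap. A match is a description of letters and not a measured binding site. The stretches below come from genes at opposite ends of the comparisons that follow, each written 5′ to 3′ on the gene's strand with the NRF1 letters in capitals.
SDHD (chr11:112086753-112086782, plus strand): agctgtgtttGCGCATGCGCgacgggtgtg
NDUFB4 (chr3:120596263-120596292, plus strand): ctctgctaacGCGCAGGCGCacttcctgaa
ATP5ME (chr4:674476-674505, minus strand): cgcagcaactGCGCAGGCGCagccgatgat
NDUFA11 (chr19:5903869-5903898, minus strand): ccggtccccgGCGCGTGCGCgcgatccatg
UQCRFS1 (chr19:29213163-29213192, minus strand): gcgcctcctcGCGCCTGCGCcgtggttgga
ATP5F1C (chr10:7788145-7788174, plus strand): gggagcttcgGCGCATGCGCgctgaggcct
The 15 genes with NRF1 letters and the 46 matched genes without them had similar median log2 ratios of low- over high-mitochondrial cells, −0.18 and −0.22 in SO-L1 and −0.45 and −0.43 in ASO-L1. For genes with and without the ETS letters the medians were −0.20 and −0.23 in SO-L1 and −0.41 and −0.46 in ASO-L1. For the YY1 letters they were −0.17 and −0.21 in SO-L1 and −0.35 and −0.45 in ASO-L1. NDUFB4, higher in ASO-L1 than in SO-L1 below, and NDUFA11 and ATP5ME, lower there, all carry the NRF1 letters. Any part of these letters in the levels was not tested.

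The nuclear genes were lower in low-mitochondrial cells of both libraries, by an amount far smaller than the difference in MT- RNA that defines the classes. To keep MT- RNA from setting the scale, counts were summed over cells and divided by the UMIs of all genes other than MT- genes (CPM throughout). In SO-L1 the 77 genes together made up 22409 CPM (22371 to 22447) in low-mitochondrial and 26085 CPM (26062 to 26107) in high-mitochondrial cells. In ASO-L1 they made up 19768 CPM (19742 to 19794) and 25920 CPM (25904 to 25937). Ranges in parentheses are exact 95% intervals, and they cover counting error only. The high-mitochondrial cells of the 2 libraries thus lay close together, and the low-mitochondrial cells of ASO-L1 were lowest. Per cell, the median was 21989 CPM (quartiles 16199 and 25821) in low- and 26317 CPM (23966 and 28497) in high-mitochondrial SO-L1 cells, and 18459 CPM (14354 and 23077) and 26326 CPM (23649 and 28758) in ASO-L1, so single cells of the classes overlapped.

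Gene by gene, a call was a ratio of at least 1.5-fold in a gene with 100 or more UMIs over both sides, which all 77 nuclear genes reached. In SO-L1, 71 of 77 were below 1 (median log2 ratio −0.21), against 42.0% of all genes measured (median 0.09). Only ATP5MC1 passed 1.5-fold lower, where 6.46% of all genes did, and 0 passed it higher, where 20% did. In ASO-L1, 71 of 77 were again below 1 (median −0.41), against 41.5% of all genes (median 0.14). There 19 nuclear genes passed 1.5-fold lower, where 12.9% of all genes did, and 0 higher, where 27.1% did. Of the 77 genes, 65 were below 1 in both libraries and 0 were above 1 in both. Genes with 10000 or more UMIs, an abundance nearer to that of these genes, gave a different background. Below 1 were 60.6% of them (SO-L1) or 55.4% (ASO-L1) with medians of −0.08 and −0.06, and with 6.28% and 14.9% called lower and 6.36% and 11% called higher.

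MALAT1, a nuclear-retained RNA, moved with the classes: it was at 4846 and 2142 CPM (low and high) in SO-L1 and at 6060 and 3278 CPM in ASO-L1. NEAT1, also nuclear-retained, was at 2246 and 303 CPM and at 1283 and 372 CPM. Cytoplasmic ribosomal protein genes took 19.7% and 20.4% of UMIs in SO-L1 and 21.1% and 21.5% in ASO-L1. The 8 pluripotency genes summed to 2793 and 3568 CPM in SO-L1 and to 1779 and 3435 CPM in ASO-L1. Counted gene by gene, the 7 naive markers went mostly the other way: 6 were at least 1.5-fold higher in low-mitochondrial cells of each library. Their median ratios were 2.23 for SO-L1 and 2.64 for ASO-L1. Summed, the 7 were lower in low-mitochondrial cells, at 255 and 289 CPM in SO-L1 and at 315 and 376 CPM in ASO-L1. DPPA5 was the largest part of each sum. In ASO-L1, KLF17 was at 5.57 times and DPPA3 at 4.03 times, while DPPA5, the exception in both libraries, was at 0.747 times in SO-L1 and 0.419 times in ASO-L1. Of markers of other cells, the 7 fibroblast feeder genes summed to 81.3 and 34.3 CPM in SO-L1 and to 251 and 58.2 CPM in ASO-L1. COL1A1, COL1A2 and TAGLN carried that sum, TAGLN reaching 181 CPM in low-mitochondrial ASO-L1 cells, while the defining stromal genes DCN and LUM were at or near 0 in every class and library. The 5 trophectoderm genes summed to 5.82 and 3.40 CPM and to 14.0 and 4.30 CPM. The part of these RNAs in the result was not tested.

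**Figure D2:**
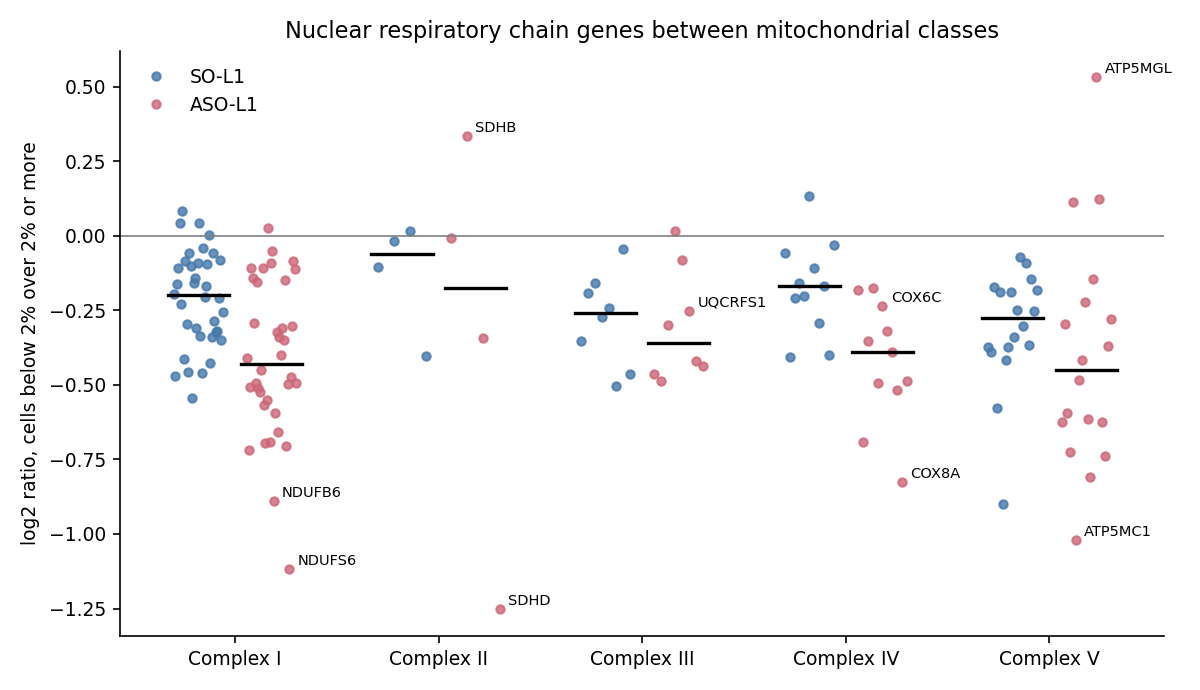
Log2 ratio of low- over high-mitochondrial cells for each of the 77 nuclear genes (points), by complex, in SO-L1 and ASO-L1, with a short line at each complex's median. Most points lie below 0 in both libraries, 71 of 77 in each, and the ASO-L1 points extend lower.

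By complex, the lowest medians were those of ATP synthase, at −0.28 in SO-L1 and −0.45 in ASO-L1. Complex I had medians of −0.20 and −0.43, complex III of −0.26 and −0.36 and complex IV of −0.17 and −0.39. Complex II, the only one without a mitochondrial gene, had −0.06 and −0.17 over its 4 genes. In complex I, the 7 catalytic core subunits had medians of −0.32 and −0.30 and the 29 accessory subunits of −0.17 and −0.49, so the larger difference in ASO-L1 lay with accessory subunits. Among these accessory subunits all 8 complex I calls of ASO-L1 were found: NDUFS6, NDUFB6, NDUFA10, NDUFS4, NDUFB10, NDUFB3, NDUFB9 and NDUFB7, at 0.461 to 0.662 times the high-mitochondrial level. NDUFB2, which overlaps ADCK2 on the same strand, had the highest complex I ratio there, 1.02. NDUFA13 and NDUFS5 had the most UMIs of complex I: NDUFA13, which overlaps YJEFN3, had ratios of 1.03 (SO-L1) and 0.906 (ASO-L1), and NDUFS5 of 0.820 and 0.708.

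ATP5MC1 was the gene called lower in both libraries. It is 1 of 3 genes that encode the same mature c subunit of the rotating ring of ATP synthase, differing in the import sequence that is removed. ATP5MC1 stood at 252 CPM in low- and 470 CPM in high-mitochondrial SO-L1 cells and at 196 and 397 CPM in ASO-L1. Its ratios were 0.536 (0.527 to 0.545) and 0.493 (0.486 to 0.50). The other two c genes differed less between the classes, in the same direction: ATP5MC2 stood at 195 and 260 CPM in SO-L1 and at 280 and 392 CPM in ASO-L1 (0.749 and 0.715 times). ATP5MC3 stood at 388 and 502 CPM in SO-L1 and at 559 and 746 CPM in ASO-L1 (0.772 and 0.749 times). Between libraries the 3 genes went different ways: ATP5MC1 was lower in ASO-L1 in each class and ATP5MC2 and ATP5MC3 were higher in each.

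**Figure D3:**
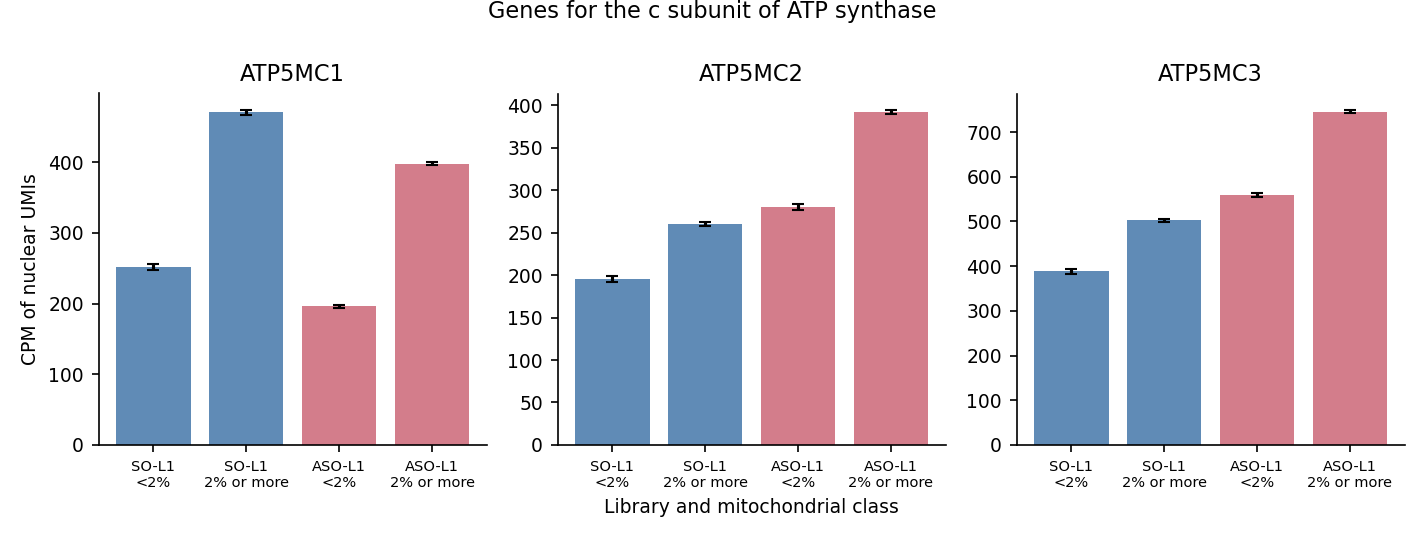
Nuclear CPM (y axis, from 0, with a scale of its own in each panel) of ATP5MC1, ATP5MC2 and ATP5MC3 in low- and high-mitochondrial cells of SO-L1 and ASO-L1, 1 library per group, with exact 95% counting intervals. ATP5MC1 stands at 252 CPM in low- against 470 CPM in high-mitochondrial SO-L1 cells, and of the 3 only ATP5MC1 is lower in ASO-L1 than in SO-L1.

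The other ATP synthase genes called lower in low-mitochondrial ASO-L1 cells belonged to its F1 head, its stalks and its membrane portion. ATP5F1A, ATP5F1C and ATP5F1D, of the catalytic F1 head and central stalk, were at 0.649, 0.663 and 0.605 times. ATP5PB and ATP5PD of the peripheral stalk were at 0.648 and 0.599 times, and ATP5ME and ATP5MF of the membrane portion at 0.654 and 0.571 times. ATP5MF overlaps PTCD1 on the same strand. ATP5F1B, the catalytic beta subunit, was at 407 and 534 CPM in SO-L1 and at 555 and 681 CPM in ASO-L1, ratios of 0.762 and 0.815. Above 1 in ASO-L1 were ATP5F1E at 1.08, ATP5MPL at 1.09 and ATP5MGL at 1.45 (1.18 to 1.77), the last on 142 and 306 UMIs. ATP5MGL overlaps CYB5R3 on the same strand, so its reads may be those of the other gene.

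Succinate dehydrogenase genes diverged from each other in ASO-L1. SDHD, a membrane anchor, was at 28.6 and 37.8 CPM (low and high) in SO-L1 and at 18.8 and 44.9 CPM in ASO-L1, ratios of 0.756 (0.716 to 0.797) and 0.420 (0.401 to 0.439). SDHB, the iron-sulfur subunit, was at 46.2 and 46.7 CPM in SO-L1 and at 103 and 81.4 CPM in ASO-L1, ratios of 0.988 (0.946 to 1.03) and 1.26 (1.23 to 1.29). SDHD thus had the lowest ratio of all 77 genes in ASO-L1, while SDHB was higher in the low-mitochondrial cells. SDHA, the flavoprotein, had ratios of 0.931 and 0.995, and SDHC, the other anchor, 1.01 and 0.789.

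In complex III, UQCRFS1, the Rieske iron-sulfur protein, had the lowest ratio in SO-L1: 196 against 278 CPM, or 0.706 (0.692 to 0.720). In ASO-L1 it was at 266 against 317 CPM, or 0.840. UQCRH, a hinge protein next to cytochrome c1, was at 1529 and 1576 CPM in SO-L1 (0.970 times) and at 1413 and 1890 CPM in ASO-L1 (0.747 times). Its near copy UQCRHL had 681 UMIs beside 397015 of UQCRH in SO-L1 and 1348 beside 834002 in ASO-L1. In complex IV the lowest ratios were those of COX5A in SO-L1, at 374 against 496 CPM (0.754 times), and COX8A in ASO-L1, at 175 against 310 CPM (0.564 times). COX7C had ratios of 0.890 and 0.698, and NDUFA4 of 0.978 and 0.713. COX6C was the only complex IV gene above 1 in SO-L1, at 1.10, and was at 0.849 in ASO-L1.

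The nuclear genes were compared along the MT- share as well as across the 2% boundary. In SO-L1 they stood between 20998 and 22641 CPM in the 4 bins below 2%, at 22885 CPM between 2% and 4%, and at 24370, 25153, 26281 and 27177 CPM in the bins from 4% to 15%, with 25937 CPM above that. In ASO-L1 they stood between 17912 and 20060 CPM below 2%, at 22151 CPM between 2% and 4%, and at 24548, 26196, 27075 and 26667 CPM from 4% to 15%, with 24440 CPM above. Every bin held at least 114 cells. The sum was thus higher in each successive bin from 2% to 10% in both libraries and lower again at the highest share. Of the 156 SO-L1 cells between 2% and 4%, 53 were small copies of ASO-L1 barcodes. As a description over cells with 8000 or more UMIs outside the MT- genes, Spearman's rho between MT- share and nuclear share was 0.28 and 0.23 in high-mitochondrial SO-L1 and ASO-L1 cells (4345 and 6320 cells) and 0.03 and −0.17 in low-mitochondrial cells (1554 and 2235 cells). The shares come from the same cells and libraries, and UMIs per cell had a rho of −0.31 and −0.22 with the nuclear share in the high-mitochondrial cells.

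Depth per cell differed between the classes, so the ratio was read within ranges of UMIs per cell. In SO-L1 the summed nuclear genes of low- over high-mitochondrial cells were at 0.917, 0.823, 0.870 and 0.874 times in cells of 8000 to 20000, 20000 to 40000, 40000 to 80000 and at least 80000 UMIs. In ASO-L1 the ratios were 0.817, 0.674, 0.778 and 0.788. The direction was the same in every range, and in each range the ratio was lower in ASO-L1 than in SO-L1. Some groups were small: SO-L1 had 26 low-mitochondrial cells of at least 80000 UMIs and 89 high-mitochondrial cells of 8000 to 20000. Leaving out all barcodes found in both libraries, which removes 1488 low-mitochondrial ASO-L1 cells with a median of 59006 UMIs and leaves 1043 with a median of 16505, raised the calls lower in ASO-L1 from 19 to 45 and in SO-L1 from 1 to 2. Before this removal 12.9% (ASO-L1) and 6.46% (SO-L1) of all genes were called lower. The share of all genes after it is not given here, so the raised counts have no background beside them.

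Between the libraries, the comparison of antisense with sense oligonucleotide, the nuclear genes had a median near 0 in high-mitochondrial cells and below 0 in low-mitochondrial cells, and both values differed with depth per cell. These ratios use the same counts as the class ratios above. In high-mitochondrial cells the median log2 ratio of ASO-L1 over SO-L1 was 0.02 (all genes −0.06). There 4 genes were at least 1.5-fold higher, where 12.2% of all genes were, and 3 lower, where 15.7% were, so fewer passed in either direction than among all genes. In low-mitochondrial cells the median was −0.15 (all genes −0.01), with 51 of 77 below 1. There 4 genes were called higher, where 22.9% of all genes were, and 11 lower, where 24.9% were. Without shared barcodes 25 of 76 were called lower, where 24% of all genes were. The difference of the 2 log2 ratios (low minus high) had a median of −0.15 over the 77 genes, 59 of them below 0, and of −0.02 over all genes, 51.3% of them below 0. Within the ranges of UMIs per cell used above, from shallowest to deepest, the low-mitochondrial medians were −0.49, −0.33, −0.12 and −0.17. Calls lower were 28 of 76, 22 of 76, 8 of 77 and 16 of 76, or 36.8%, 28.9%, 10.4% and 21.1%, against 19.1%, 24.2%, 23.3% and 28% of all genes. The share was thus above the background in the shallower cells and below it in the deeper cells, of which the deepest SO-L1 group held 26 cells. The high-mitochondrial medians were −0.29, −0.01, 0.05 and 0.02, with 19 of 75, 6 of 76, 2 of 77 and 4 of 76 called lower (25.3%, 7.89%, 2.60% and 5.26%) against 15.7%, 15.7%, 15.9% and 16.3%. Only the high-mitochondrial cells of 8000 to 20000 UMIs, with summed genes at 0.790 times, were above the background. That range held 89 SO-L1 and 156 ASO-L1 cells. Over all kept cells together the median was 0.00 (all genes −0.04), with 3 genes higher and 5 lower, against 16.0% and 18.0% of all genes.

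**Figure D4:**
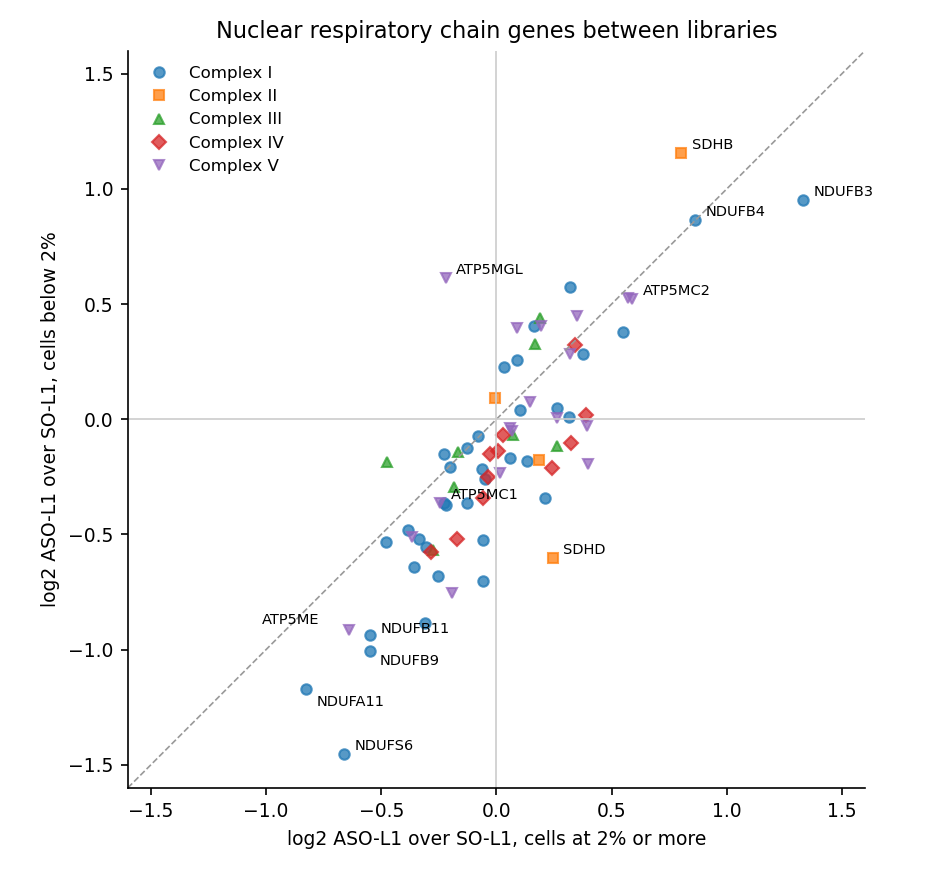
Log2 ratio of ASO-L1 over SO-L1 for the 77 nuclear genes in high-mitochondrial cells (x axis) and low-mitochondrial cells (y axis), with colours and symbols for the complexes and a dashed diagonal where both ratios are equal. Genes below the diagonal, 59 of 77, have a lower ratio in low-mitochondrial cells, and NDUFB3, NDUFB4 and SDHB lie past 1.5-fold in both classes.

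Single genes stood apart from the group in both classes. NDUFB3, a small accessory subunit of complex I, was at 27.7 CPM in SO-L1 and 53.6 CPM in ASO-L1 low-mitochondrial cells and at 34.3 and 86.5 CPM in high-mitochondrial cells, ratios of 1.93 (1.83 to 2.04) and 2.52 (2.45 to 2.59). NDUFB4, another accessory subunit, was at 105 and 192 CPM and at 112 and 204 CPM, a ratio of 1.82 in each class. SDHB had ratios of 2.23 (2.13 to 2.32) and 1.74 (1.70 to 1.79), from the levels given above. ATP5MC2 passed the threshold in high-mitochondrial cells only, at 1.51, with 1.44 in low-mitochondrial cells. ATP5MGL passed it in low-mitochondrial cells at 1.53 (1.09 to 2.17) on 142 and 48 UMIs.

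On the lower side NDUFS6, NDUFA11 and ATP5ME were called in both classes. NDUFS6, an accessory subunit that carries zinc in complex I, was at 469 CPM in SO-L1 and 171 CPM in ASO-L1 low-mitochondrial cells and at 587 and 372 CPM in high-mitochondrial cells, ratios of 0.365 (0.358 to 0.372) and 0.633 (0.628 to 0.638). NDUFA11, a membrane accessory subunit of complex I, was at 423 and 188 CPM and at 473 and 267 CPM, ratios of 0.444 and 0.563. ATP5ME, subunit e of ATP synthase, was at 633 and 336 CPM and at 800 and 514 CPM, ratios of 0.530 and 0.642. These 3 genes were lower in ASO-L1 in each class, with the larger difference in the low-mitochondrial cells. The other 8 called lower in low-mitochondrial cells were NDUFB9 at 0.499, NDUFB11 at 0.522, NDUFA3 at 0.542, ATP5MF at 0.593, NDUFS4 at 0.615, NDUFA6 at 0.624, NDUFB8 at 0.642 and SDHD at 0.659, of which 6 encode accessory subunits of complex I. With NDUFS6 and NDUFA11, 8 of the 29 accessory subunits were called lower (27.6%), near the 24.9% of all genes. On the same strand ATP5MF overlaps PTCD1 and NDUFA6 overlaps AL021878.2, so their reads may include those of the other gene. SDHD and NDUFS4 had ratios of 1.19 and 0.961 in high-mitochondrial cells.

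Complexes III and IV had no gene past 1.5-fold between libraries in either class. In complex III the extremes were UQCRFS1 at 1.36 and UQCR11 at 0.675 in low-mitochondrial cells, and UQCRH at 1.20 and UQCRC1, a core protein, at 0.720 in high-mitochondrial cells. In complex IV they were COX6A1, at 356 CPM in SO-L1 and 445 CPM in ASO-L1, and COX6B1 at 0.670 in low-mitochondrial cells, and COX6C at 1.31 and COX6B1 at 0.820 in high-mitochondrial cells. COX4I1, a regulatory subunit, was at 891 and 803 CPM in low- and 927 and 910 CPM in high-mitochondrial cells of SO-L1 and ASO-L1.

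The 13 mitochondrial genes were lower in ASO-L1 than in SO-L1 within the high-mitochondrial cells. These cells were selected by their MT- share, which counts the same 13 genes, so the selection bounds the levels compared. Over all kept cells, not divided into classes, the median log2 ratio was −0.37, and without the cell filter it was −0.40. Over 14 other settings for all kept cells it lay between −0.40 and −0.12. In the high-mitochondrial cells the 13 genes together held 100545 CPM in SO-L1 and 80614 CPM in ASO-L1, on the same scale of UMIs outside the MT- genes. The median log2 ratio was −0.36 over the 13 genes, 10 of them below 1, against −0.06 over all genes, 54.9% of them below 1. Only MT-ATP6, a subunit of the proton channel of ATP synthase, passed 1.5-fold, at 13444 CPM in SO-L1 and 8428 CPM in ASO-L1, 0.627 times (0.626 to 0.628). That call lower was 7.69% of the 13 genes, a smaller share than the 15.7% of all genes called lower. MT-CYB, the cytochrome b of complex III, was at 8379 and 5895 CPM (0.704 times), and MT-ND5 of complex I at 1206 and 845 CPM (0.701 times). MT-CO1, MT-CO2 and MT-CO3, the catalytic core of complex IV, were at 0.948, 0.846 and 0.770 times. MT-ND1, MT-ND4, MT-ND4L and MT-ND6 of complex I lay between 0.762 and 0.877 times and MT-ND3 at 1.0. Higher in ASO-L1 were MT-ND2, at 1711 and 2036 CPM (1.19 times), and MT-ATP8, at 166 and 218 CPM (1.31 times). MT-ATP8 and MT-ATP6 overlap each other on the same strand and share a transcript, as do MT-ND4L and MT-ND4, so reads of each pair may be divided between its genes and their separate values are uncertain. MT-ATP6 also overlaps MT-CO3 on the same strand.

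In low-mitochondrial cells the same 13 genes held 2004 CPM (SO-L1) and 2117 CPM (ASO-L1), and no direction between libraries can be given. Their median log2 ratio was 0.09 with the classes divided at 2%, −0.13 with 1% and 0.70 with 3%. MT-ND2 at 1.74 (1.66 to 1.83) and MT-CO1 at 1.47 (1.45 to 1.5) were the highest, and MT-ATP6 at 0.770 (0.755 to 0.786) was the lowest. The order of MT-ATP6 below MT-CO1 and MT-ND2 was thus the same in both classes.

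Set against the nuclear genes of the same complexes, MT- UMIs per nuclear subunit UMI came to 3.85 for SO-L1 and 3.11 for ASO-L1 among high-mitochondrial cells, and 0.089 and 0.107 in low-mitochondrial cells. Complex IV had the most in high-mitochondrial cells, at 8.42 and 6.86, against 2.61 and 2.48 in complex I, 2.24 and 1.51 in complex III and 2.08 and 1.26 in complex V. The level of MT- RNA is what the classes were made from and is given here as a description. The nuclear side of that ratio moved by 0.859 times (SO-L1) and 0.763 times (ASO-L1) between the classes.

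The class boundary fixes the sum of the MT- genes but not their proportions, and these differed between the classes. MT-CO1 made up 13.4% (13.2% to 13.6%) of MT- UMIs in low- and 11.9% in high-mitochondrial SO-L1 cells, and 18.7% (18.5% to 18.8%) and 14.0% in ASO-L1. MT-ND5 made up 1.42% and 1.20% in SO-L1 and 1.64% and 1.05% in ASO-L1. MT-ND6, the only protein encoded on the light strand, made up 0.369% and 0.257% and 0.330% and 0.25%. MT-ND4L made up 0.239% and 0.141% and 0.304% and 0.135%. Each of these 4 shares was higher in low-mitochondrial cells of both libraries. So was that of MT-CO3, at 25.9% and 24.6% in SO-L1 and at 24.9% and 23.7% in ASO-L1. The MT-ND4L shares of low-mitochondrial cells rest on 283 and 736 UMIs. Because MT-ND4L overlaps MT-ND4, the separate shares of these 2 genes are uncertain. MT-ND3 went the other way, at 3.52% and 4.04% in SO-L1 and at 3.55% and 5.04% in ASO-L1, as did MT-ND4, at 9.38% and 10.6% and at 9.19% and 10.1%. MT-CO2 made up 17.9% and 18.2% in SO-L1 and 16.3% and 19.2% in ASO-L1.

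The barcodes left out by the cell filter, which can include droplets with free RNA alone, were read in the same way, and the part of free RNA in these proportions was not tested. Small copies of the other library's barcodes made up 5036 of the 6517 left out of SO-L1 and 786 of the 2575 left out of ASO-L1. MT- UMIs made up 37.2% of all their UMIs (SO-L1) or 50.4% (ASO-L1). There MT-CO1 made up 11.6% and 13.2% of MT- UMIs and MT-ATP6 16.4% and 14.4%. The MT-CO1 share of low-mitochondrial cells was above that of the left-out barcodes in both libraries, and their MT-ATP6 share, 12.9% and 9.41%, was below it. MT-ND6 made up 0.451% and 0.513% of MT- UMIs in left-out barcodes, above both classes. With the small copies left out, the MT-CO1 shares of these barcodes were 11.6% and 13.2%, the MT-ATP6 shares 16.7% and 14.4% and the MT-ND6 shares 0.461% and 0.515%.

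**Figure D5:**
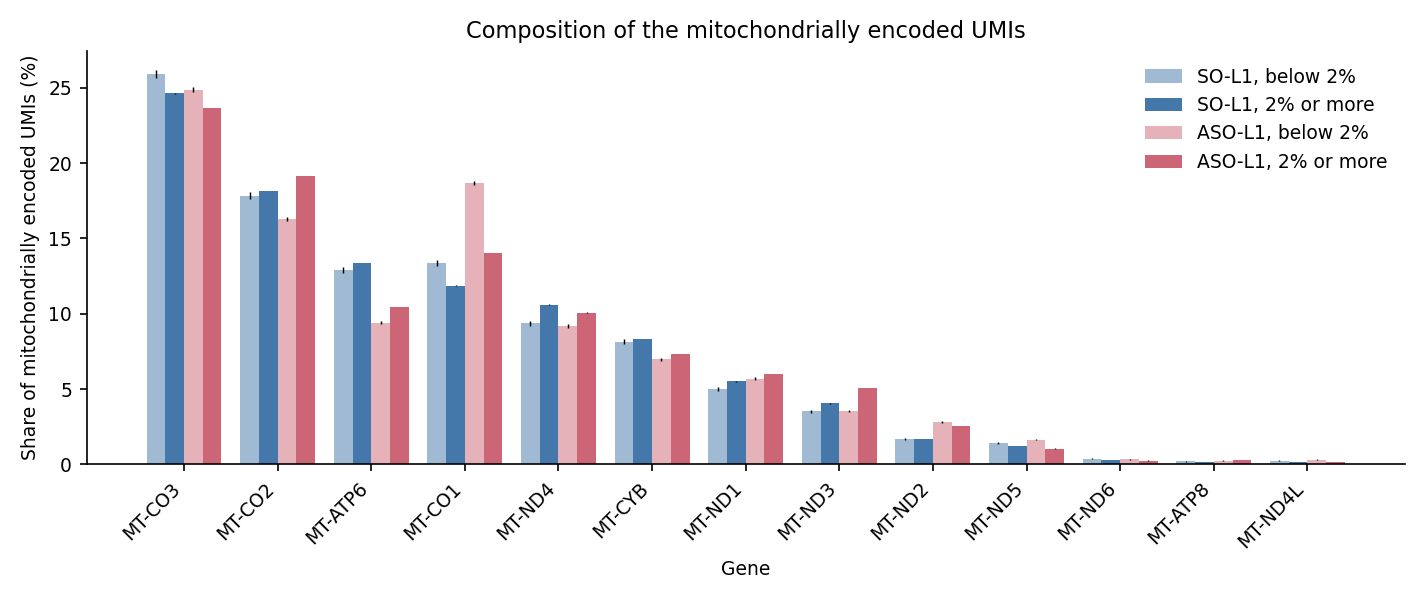
Share of all MT- UMIs (percent, y axis) taken by each of the 13 mitochondrial genes in low-mitochondrial cells (pale bars) and high-mitochondrial cells (dark bars) of SO-L1 and ASO-L1, with exact 95% counting intervals. The MT-CO1 bar is tallest for low-mitochondrial ASO-L1 cells, at 18.7% against 14.0% in the high-mitochondrial cells.

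Other genes that serve the respiratory chain were read from lists of 53 assembly factors, 15 other isoforms and subunits, 13 coenzyme Q synthesis genes, 17 genes of the citric acid cycle and pyruvate dehydrogenase and 29 protein import genes. Low- over high-mitochondrial medians in SO-L1 and ASO-L1 were −0.18 and −0.18 for assembly factors, −0.15 and −0.14 for other isoforms (12 measured), −0.14 and −0.14 for coenzyme Q synthesis, −0.28 and −0.36 for the citric acid cycle and −0.32 and −0.23 for protein import. All 5 medians were below 0 in both libraries, as were those of the respiratory chain genes at −0.21 and −0.41. Cytoplasmic ribosomal protein genes, a list of 77, had medians of −0.08 and −0.03. In SO-L1 the calls lower and higher were 1 and 1 of 53, 2 and 1 of 12, 0 and 1 of 13, 0 and 0 of 17, and 4 and 0 of 29 in that order of lists, where 6.46% of all genes were called lower and 20% higher. In ASO-L1 they were 7 and 2, 0 and 2, 2 and 1, 3 and 0, and 3 and 0, where 12.9% were called lower and 27.1% higher, so the assembly factors called lower (13.2%) were near the background.

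Cytochrome c itself, CYCS, was among the lower genes: 315 against 507 CPM in SO-L1 (0.622 times, 0.613 to 0.632) and 447 against 630 CPM in ASO-L1 (0.710 times). CYC1, the cytochrome c1 of complex III, was at 143 against 172 CPM (0.830 times) and 137 against 194 CPM (0.707 times). GRPEL1, a co-chaperone of the import motor, was at 22.5 against 49.1 CPM in SO-L1 (0.459 times), with 50.7 CPM in low-mitochondrial ASO-L1 cells. The small carrier chaperone TIMM13 was at 0.637 times in SO-L1 and 0.656 times in ASO-L1. TIMM9, its relative, differed between libraries, at 1.06 (1.01 to 1.11) in SO-L1 and 0.475 (0.451 to 0.50) in ASO-L1. NDUFAF2, a complex I assembly factor, was at 24.9 against 58.3 CPM in ASO-L1 (0.427 times), and COX18, which inserts a complex IV subunit into the membrane, at 2.28 against 5.92 CPM (0.386 times). COX18 was at 7.60 CPM in low-mitochondrial SO-L1 cells. GRPEL1, NDUFAF2 and COX18 were not among the 2 lowest of their lists in the other library. Some genes of these lists were higher in low-mitochondrial cells of both libraries. COX6B2, the testis isoform of a complex IV subunit, was at 2.60 and 4.23 times on 288 and 554 UMIs in the low-mitochondrial cells. NDUFAF7, a methyltransferase that modifies complex I, was at 1.81 and 1.57 times. The assembly factor COX19 was at 1.42 and 1.61 times. Of the coenzyme Q genes, COQ10A was at 1.80 and 1.33 times and COQ10B at 1.31 and 2.14 times.

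Between libraries, the largest differences of these lists were in assembly factors. UQCC2, needed for cytochrome b synthesis and complex III, was at 136 CPM in SO-L1 and 32.9 CPM in ASO-L1 low-mitochondrial cells and at 108 and 50.6 CPM in high-mitochondrial cells, ratios of 0.243 (0.233 to 0.252) and 0.468 (0.459 to 0.477). FMC1, an ATP synthase assembly factor, was at 10.4 and 32.2 CPM and at 11 and 40.5 CPM, ratios of 3.11 (2.86 to 3.39) and 3.70 (3.53 to 3.87). NDUFAF4, a complex I assembly factor, had ratios of 2.38 and 1.65. HSPA9, the import motor chaperone, had ratios of 1.82 and 1.76. COQ10B, a coenzyme Q chaperone, had 2.59 and 1.59, and PDSS2, which makes the coenzyme Q tail, had 0.417 and 0.653. SUCLG2, a succinate-CoA ligase subunit, had 0.383 and 0.672. Each of these genes differed in the same direction in both classes. Medians of ASO-L1 over SO-L1 lay between 0.00 and 0.30 in low-mitochondrial cells and between 0.00 and 0.13 in high-mitochondrial cells for the 5 lists.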

How the data were processed

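The authors deposited raw UMI counts per gene and barcode from 10x 3' v3 libraries. Per the submitters' processing notes these were made with Cell Ranger 7.1.0 on hg38. For the annotation release, cell calling and intronic reads the choices were not given in the sources used here. Genes, lists and classes were chosen with earlier results of these data known.

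From the counts, cells with 1000 or more genes and under 20% MT- UMIs were kept and divided at 2%. UMIs were summed over cells and divided by the total outside MT- genes. Ratios carry exact conditional binomial (Clopper-Pearson) intervals and levels exact Poisson intervals, at 95%. The script was tested on simulated data. Calls are ratios of at least 1.5-fold in genes with 100 or more UMIs. With 1 library per group there is no test across genes. No doublet caller was run. The 5% of cells with most UMIs were left out as an alternative.

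Genes named are all calls, all 13 MT- genes and a selection of the highest, the lowest and the one with most UMIs in each comparison and complex. From each other list they are a selection of the 2 highest and 2 lowest. CYC1, CYCS, MALAT1, POU5F1, SOX2 and NANOG could always be named. Other genes in the text (the remaining c ring and succinate dehydrogenase genes, NEAT1 and the marker genes) were named as members of a set. Gene positions came from GENCODE v29, in which 14 of the 90 genes overlap another gene on the same strand, and promoter windows from RefSeq. Python 3.11.15, numpy 2.4.6, scipy 1.17.1, pandas 2.3.3 and matplotlib 3.10.9 were used.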

Additional observations from a re-analysis of the deposited data

How the results depend on the processing

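No paired analysis was possible because each group has 1 library, and for the same reason no replicate could be left out. Of 343 values recomputed under other settings, 296 stayed within their bounds and 47 moved. The median log2 ratio of low- over high-mitochondrial cells kept its sign in SO-L1 and in ASO-L1 under 17 settings each. In SO-L1 it moved from −0.21 to −0.070 with MT- genes in the total, to −0.29 with median of ratios scaling and to −0.29 with cells weighted equally. In ASO-L1 it moved from −0.41 to −0.30 with MT- genes in the total, to −0.55 with median of ratios scaling and to −0.62 with shared barcodes left out. Median of ratios scaling sets the all-gene medians, 0.09 in SO-L1 and 0.14 in ASO-L1, to 0. Leaving out shared barcodes moved the ASO-L1 over SO-L1 median of low-mitochondrial cells from −0.15 to −0.39, the difference between classes from −0.15 to −0.38, the nuclear level at 0% to 0.25% over that at 8% to 10% MT- UMIs to 0.841 in SO-L1 and 0.628 in ASO-L1, and the largest change of an MT- share (MT-CO1, ASO-L1) to 7.63 points. A filter of 2000 genes and 10% MT- UMIs moved that change to 1.45 points in SO-L1. The MT- median of low-mitochondrial cells, 0.09, was −0.13 with the classes divided at 1%, −0.13 with cells from 1% to 3% left out, 0.70 with 3% and 1.10 without shared barcodes. The ASO-L1 over SO-L1 median of all kept cells lay between −0.02 and 0.05.

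Counts of called genes moved mainly with the fold required. The share of all genes called can change with each setting too and is not given in this paragraph. These counts therefore show how far the calls depend on the setting, and not whether they exceed a background. With a required ratio of 5 to 4 and with 2-fold, calls higher were 10 and 1 in all kept cells, 15 and 1 in low-mitochondrial and 13 and 1 in high-mitochondrial cells for ASO-L1 over SO-L1, and calls lower were 16 and 0, 26 and 3, and 11 and 0. For low- over high-mitochondrial cells, calls lower were 24 and 0 in SO-L1 and 47 and 3 in ASO-L1, and calls higher in ASO-L1 were 2 with 5 to 4. Without shared barcodes, calls higher in all kept cells were 6, calls lower were 25 in low-mitochondrial and 5 in high-mitochondrial cells, and calls lower between classes came to 2 (SO-L1) and to 45 (ASO-L1). Median of ratios scaling gave 5 calls higher in all kept cells and 4 (SO-L1) and 35 (ASO-L1) lower between classes. The filter of 2000 genes and 10% gave 5 higher in all kept cells, the minimum of 10000 UMIs gave 2 higher in low-mitochondrial cells, and weighting cells equally gave 4 lower and leaving out the 5% of cells with most UMIs 2 lower between SO-L1 classes. With MT- genes in the total, ASO-L1 classes gave 1 higher and 11 lower. The causes were not tested. Leaving out small barcode copies, the depth ranges and a minimum of 1000 UMIs were chosen after the data were seen. Depth limits ATP5MGL most, with 48 UMIs in low-mitochondrial SO-L1 cells.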
